A study of Mus musculus with 18 samples.

Results

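Interneurons sorted from control mouse brains 2 days after birth (P2) were compared with those sorted shortly before birth (E18.5), over 6 of the 18 arrays of the series. The arrays were taken by their labels, 3 for each age, and all gene-annotated probe sets were read, 35877 of the 45101 on the array. Of these, 34945 named 1 gene each, and 14288 genes entered the tests. The P2 control group and the E18.5 control group carried the GAD65-GFP transgene, in which the promoter of the GABA-synthesizing enzyme GAD65 drives green fluorescent protein. Sorting was for cells derived from the caudal ganglionic eminence (CGE), which at P2 settle in the cortex and at E18.5 invade the cortical plate. Each array held RNA of 1 pool of at least 4 brains, and the 3 arrays of a group came from 3 litters. Htr3a-KO;GAD65-GFP mice at P2 and at E18.5 gave the same age step in 6 other arrays, and GAD65-GFP controls at E14.5 gave 3 arrays of an earlier stage, when the cells migrate tangentially. GFP was thus shared by all groups, and the sex of the pooled animals was not given in the sources used here.

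CGE interneurons arise in the ventral telencephalon, migrate into the cortex as immature cells and mature mostly in its superficial layers. They are known for the serotonin-gated channel subunit Htr3a and for the later expression of vasoactive intestinal peptide, reelin, cholecystokinin or Lamp5 in different subclasses. Around birth these cells leave their migratory streams, enter their layer and begin to acquire channels, receptors and synapses. Over the same days the cortex around them ends its neurogenesis and starts to produce astrocytes and oligodendrocyte precursors.

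Values below are log2 intensities, means are given ± SD over 3 arrays, and differences are P2 minus E18.5 on the log2 scale. A gene passed where limma, fitted to all 14288 genes, gave an adjusted p under 0.05. Array medians lay between 6.36 and 6.45, and correlations between arrays were 0.984 to 0.991 within an age and 0.966 to 0.984 between ages. The Gapdh 3' to 5' difference, a measure of RNA integrity, averaged 1.94 ± 0.23 at P2 and 1.74 ± 0.10 at E18.5 (exact permutation p = 0.3, two-sided, where 0.1 is the smallest possible with 3 arrays against 3). Eif2s3y, a gene of the Y chromosome, read 4.07 on E18.5 array 2 and 8.81 to 9.60 on the other 5 arrays.

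The label was checked against marker genes. Gad1, the main GABA-synthesizing enzyme, read 11.38, 11.72 and 11.63 at P2, against 11.59, 11.86 and 11.72 at E18.5, and these ranges overlapped. A second, dimmer Gad1 probe set read 6.91, 6.80 and 6.94 at P2, against 7.58, 7.97 and 7.36 at E18.5, without overlap. It did not pass (difference -0.75, adjusted p over all probe sets = 0.102). The interneuron transcription factor Dlx1 read 10.88, 10.96 and 10.86 at P2, against 10.58, 11.78 and 10.79 at E18.5. Nr2f1, a factor of CGE cells, read 11.32, 11.70 and 11.97 at P2 and 11.63, 12.14 and 11.87 at E18.5. Gad2, which encodes GAD65, read 9.35, 9.33 and 9.03 at P2, against 9.34, 10.35 and 9.32 at E18.5 (difference -0.43, adjusted p = 0.542). The other Gad2 probe set differed by -0.76. By their brightest probe sets these 4 genes lay well above the array medians at both ages. Markers of other cells were bright as well. Over 27 astrocyte genes the mean level of an array was 9.65 to 10.28 at P2 and 7.52 to 8.17 at E18.5. The 17 oligodendrocyte precursor genes lay at 9.90 to 10.30 at P2 and at 8.40 to 8.95 at E18.5. The 22 microglia genes gave 9.53, 8.09 and 6.97 on the 3 P2 arrays, against 7.15, 6.23 and 6.39 on the E18.5 arrays. For excitatory lineage genes, 21 in number, the order was the other way round, with 7.86 to 7.94 at P2 and 8.73 to 9.04 at E18.5. In bulk RNA of this kind, fewer cells of a type and less RNA per cell cannot be told apart, and the part of these other cells in the differences below was not tested.

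**Figure D1:**
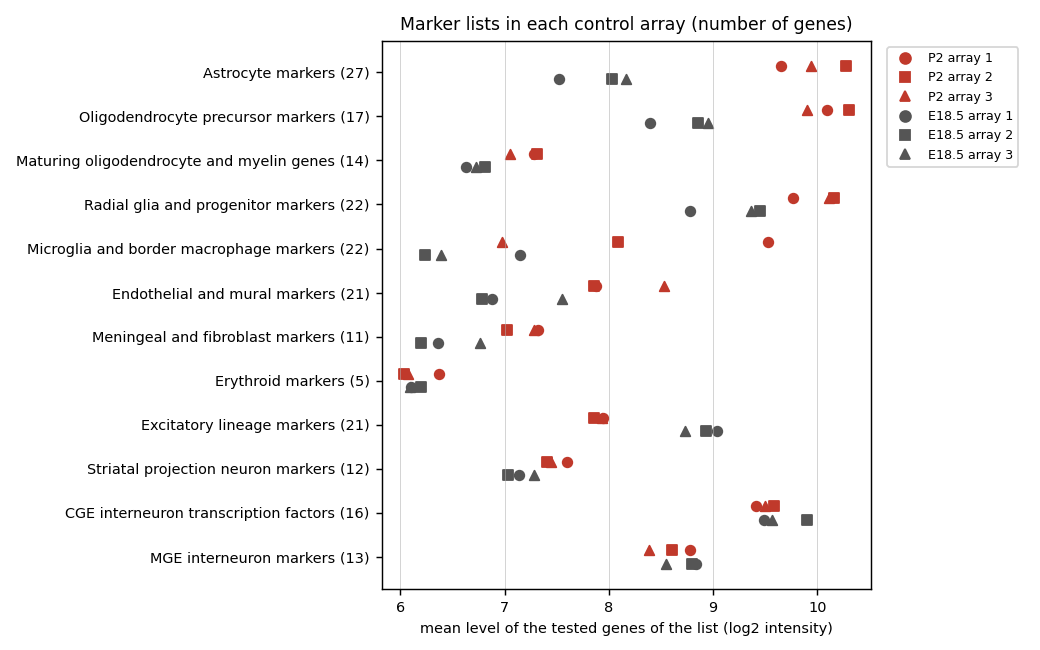
Mean level of the tested genes of each marker list (x axis, log2 intensity) in each control array, with P2 in red above E18.5 in grey and 1 symbol per array number. Both ages separate without overlap for astrocyte genes (9.65 to 10.28 at P2 and 7.52 to 8.17 at E18.5) and, in the other direction, for excitatory lineage genes, while the microglia genes of P2 array 1 (9.53) stand above those of P2 array 3 (6.97).

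The age step was broad and uneven in size. Of 14288 genes, 2818 (19.7%) passed, 1424 (9.97%) higher at P2 and 1394 (9.76%) lower, and the median difference of all genes was -0.04. The 3 P2 arrays did not overlap the 3 E18.5 arrays in 4691 genes (32.8%), 2245 (15.7%) higher and 2446 (17.1%) lower, and 2700 of the genes that passed were among them. Rises were larger than falls. More than 2-fold differences were reached by 604 of the genes that passed higher and by 83 of those that passed lower, and more than 4-fold differences by 141 and 4. Beyond 8-fold there were 23 genes higher and 0 lower. Without E18.5 array 1 the count was 1823 and without P2 array 2 it was 1856.

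After Aqp4, the water channel of astrocyte endfeet, and the lipoprotein gene Apoe, the next largest rise was that of Pla2g7, a secreted phospholipase that degrades platelet-activating factor. It read 10.31, 11.28 and 10.96 at P2, against 6.16, 6.81 and 7.30 at E18.5, a difference of 4.09 ± 0.29 (SE, adjusted p = 7.95e-07). Adhfe1, a mitochondrial alcohol dehydrogenase of the iron-containing family, had the smallest p of all genes. Its arrays read 8.23, 9.04 and 9.19 at P2 and 4.98, 5.20 and 5.38 at E18.5 (difference 3.63 ± 0.20, SE, adjusted p = 9.47e-08), where the E18.5 mean of 5.19 lay under the level of 5.255 below which probe sets were left out as dim. No array of one age reached the other age for these genes. Car8, a protein that binds the inositol trisphosphate receptor, differed by 3.72 ± 0.27 (SE, adjusted p = 9.70e-07).

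**Figure D2:**
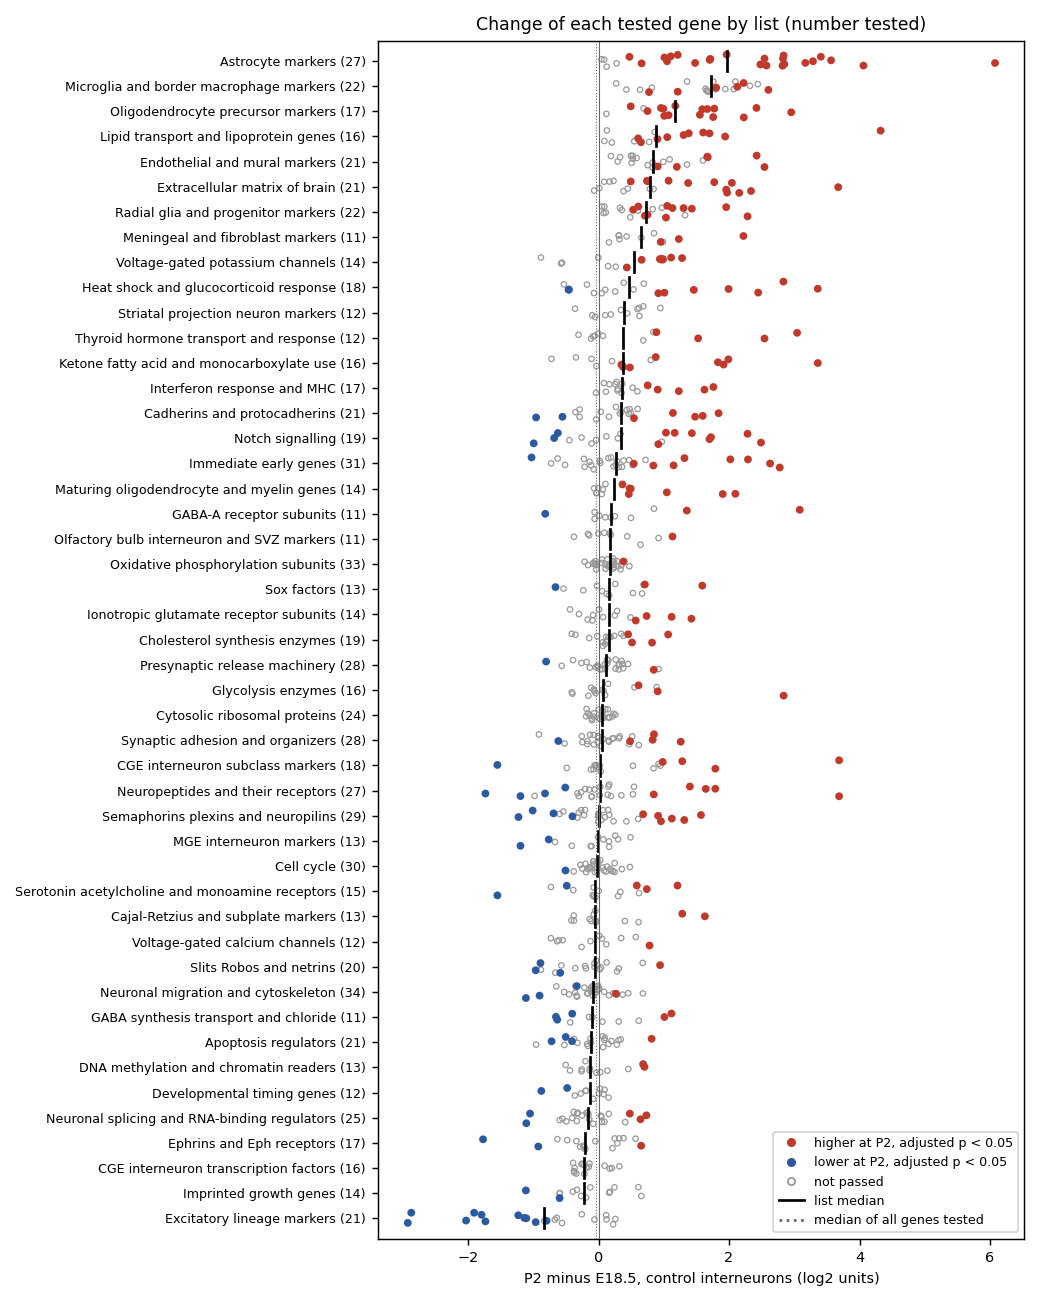
Difference between P2 and E18.5 (x axis, log2 units) of every tested gene of the lists with 10 or more tested genes, in order of the list's median (black bar). Filled points passed, red for higher and blue for lower at P2. Astrocyte genes (median 1.96) lie at the top and excitatory lineage genes (median -0.83) at the bottom, while most neuronal lists spread around the median of all genes (-0.04).

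Transcription factors of CGE interneurons did not pass by their brightest probe sets. Of 16 tested, 0 passed in either direction, with a median of -0.22 and a range of -0.39 to 0.32. Prox1, needed for CGE interneuron maturation, read 6.27, 6.37 and 6.72 at P2, against 6.70, 7.27 and 6.56 at E18.5, and the ages overlapped. Nr2f2 averaged 9.09 ± 0.35 at P2 and 9.27 ± 0.13 at E18.5, and Sp8 averaged 8.68 ± 0.48 at P2 and 8.50 ± 0.92 at E18.5. Neither passed by its brightest probe set. Another Nr2f2 probe set passed lower (difference -0.58, adjusted p over all probe sets = 0.0154). All 5 probe sets of Nr2f2 had negative differences, from -0.72 to -0.18.

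Of 18 tested subclass genes of the same cells, 4 rose and 1 fell (27.8%, against 19.7% of all genes). Crh, a stress peptide made by some cortical interneurons, had the largest rise. It read 8.18, 8.14 and 8.53 at P2, against 4.64, 4.52 and 4.63 at E18.5 (difference 3.69 ± 0.33, SE, adjusted p = 5.78e-06). All 3 P2 arrays lay far above a dim E18.5 level, so no fold is given. Vip, the peptide that names a CGE subclass, rose to 7.50, 7.52 and 7.28 at P2, against 5.42, 5.87 and 5.64 at E18.5, 3.46-fold (adjusted p = 0.00236). Lamp5, a membrane protein of the neurogliaform subclass, rose to 6.13, 6.13 and 6.77 at P2, against 5.29, 5.41 and 5.38 at E18.5, 1.98-fold (adjusted p = 0.00299). The ages did not overlap for either gene. Cplx3, a complexin, rose 2.43-fold (adjusted p = 0.0114), a call that was lost without P2 array 2 (adjusted p = 0.0519). Cplx3 was also counted in the list of Cajal-Retzius and subplate genes, as 1 of its 2 rises among 13 tested.

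Htr3a itself fell. The arrays read 8.61, 8.64 and 9.11 at P2 and 9.64, 10.79 and 10.58 at E18.5, 2.93-fold lower at P2 with no overlap (difference -1.55 ± 0.26, SE, adjusted p = 8.35e-04). Mean levels over the 3 control ages were 8.04 at E14.5, 10.34 at E18.5 and 8.79 at P2. Reln, Calb2 and Npy did not pass and overlapped between ages. Reln averaged 12.45 ± 0.27 at P2 and 12.50 ± 0.51 at E18.5, Calb2 averaged 9.23 ± 0.22 at P2 and 9.27 ± 0.50 at E18.5, and Npy averaged 10.33 ± 0.18 at P2 and 10.39 ± 0.59 at E18.5.

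Genes of interneurons from the medial ganglionic eminence gave 0 rises and 2 falls among 13 tested, and 1 fall without P2 array 2 or E18.5 array 1. The share of the list that passed was 15.4%, against 19.7% of all genes. Sst, the somatostatin precursor, fell to 8.97, 8.45 and 8.16 at P2, against 10.20, 9.30 and 9.67 at E18.5, 2.29-fold (adjusted p = 0.00419). Nos1, neuronal nitric oxide synthase, differed by -0.76 (adjusted p = 0.0132), a call lost without P2 array 2 (0.0556) or E18.5 array 1 (0.0514). Lhx6, the factor that specifies these cells, read 9.86, 8.57 and 8.44 at P2, against 9.88, 9.70 and 9.29 at E18.5, and did not pass.

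Peptides and their receptors moved in both directions, with 5 rises and 4 falls among 27 tested (33.3%, against 19.7% of all genes). Without E18.5 array 1 the falls numbered 2. Grp, the gastrin-releasing peptide, rose to 9.82, 9.43 and 9.43 at P2, against 7.75, 7.51 and 8.49 at E18.5, 3.12-fold (adjusted p = 0.00115). The somatostatin receptor genes split. Sstr4 read 7.84, 7.73 and 7.90 at P2 and 6.30, 6.49 and 6.48 at E18.5 (difference 1.40 ± 0.17, SE, adjusted p = 6.20e-05), while Sstr2 read 7.71, 7.54 and 7.52 at P2 and 9.51, 9.34 and 9.12 at E18.5 (difference -1.73 ± 0.16, SE, adjusted p = 7.25e-06). Neither receptor gene overlapped between ages. Sstr2 was also counted in the list of excitatory lineage genes, which fell in 11 of 21 cases. A second, dimmer probe set of Sstr4 did not follow, with 5.58 ± 0.19 at P2 and 5.73 ± 0.24 at E18.5. Adcyap1r1, the receptor of the peptide PACAP, rose 1.80-fold (adjusted p = 0.00139).

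**Figure D3:**
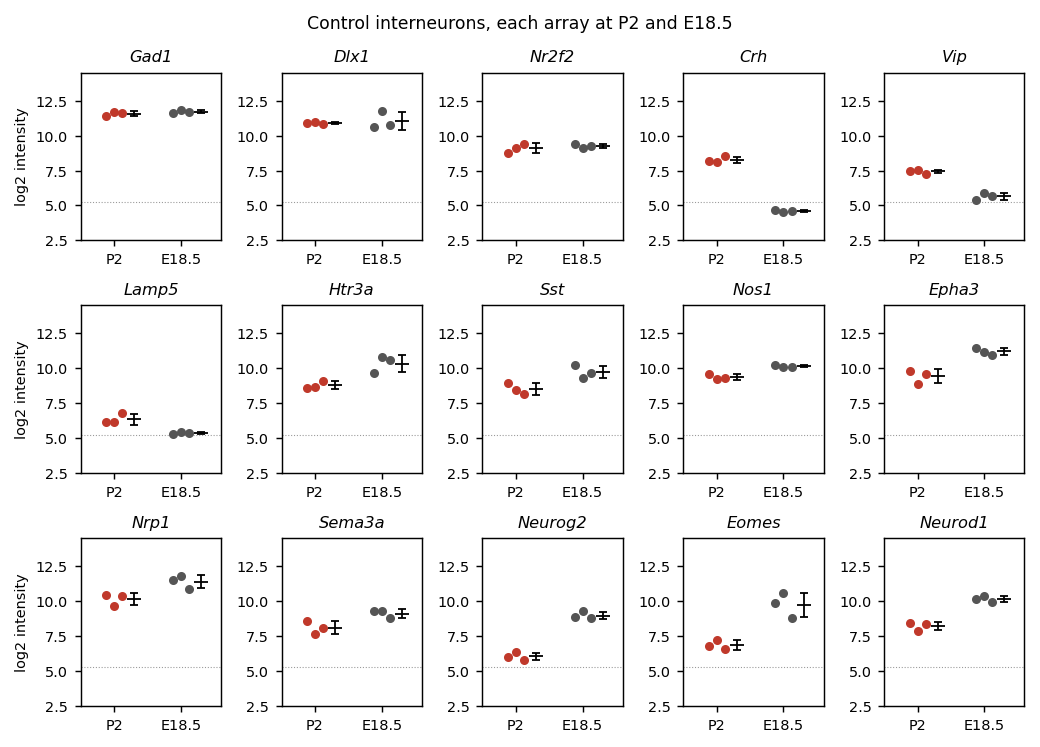
Log2 intensity (y axis) of 15 genes in each control array, P2 left of E18.5, with bars for the mean ± SD over 3 arrays and a dotted line at the level of 5.255 under which probe sets were left out. By the brightest probe set of each gene, Gad1, Dlx1 and Nr2f2 overlap between ages. Crh, Vip and Lamp5 are higher at P2, and the other genes from Htr3a to Neurod1 are lower at P2.

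Among channels, potassium channel genes rose most often. Of 14 tested voltage-gated potassium channel genes and their partners, 8 rose and 0 fell (57.1%, against 19.7% of all genes). The median was 0.55. Kcna2, a delayed rectifier of axons, read 7.41, 7.86 and 7.79 at P2, against 6.56, 6.56 and 6.60 at E18.5 (difference 1.11 ± 0.13, SE, adjusted p = 5.31e-05). Kcnip4, a partner of A-type channels, rose 2.43-fold (adjusted p = 0.00167), and Kcnd2, which forms the A-type pore, rose 1.98-fold (adjusted p = 0.00708). Kcnc4, a fast-activating channel, rose 1.95-fold (adjusted p = 0.00249). The P2 and E18.5 arrays of these 4 genes did not overlap. In a fit of only the 6 control arrays 5 genes of the list rose. Its falls numbered 1 without P2 array 1 or after median centring, and 2 without E18.5 array 2 or after quantile normalization. Of 7 sodium channel genes 0 passed. Of 12 calcium channel genes 1 passed (8.33%), higher, and 0 without P2 array 3, E18.5 array 1 or E18.5 array 2.

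Receptor genes for GABA and glutamate changed at a few members. Of 11 GABA receptor genes 2 rose and 1 fell (27.3%, against 19.7% of all genes). The fall was lost without P2 array 2 or E18.5 array 1. Gabrg1, a gamma subunit also found in glia, read 9.41, 10.41 and 9.90 at P2, against 6.32, 6.91 and 7.24 at E18.5, 8.48-fold higher at P2 (adjusted p = 2.31e-05). Gabrb1, a beta subunit, rose 2.56-fold (adjusted p = 0.00448). Of 14 ionotropic glutamate receptor genes 4 rose and 0 fell (28.6%). Grin3a, an NMDA receptor subunit of immature synapses, rose to 8.93, 8.72 and 8.92 at P2, against 7.38, 7.35 and 7.57 at E18.5, 2.68-fold (adjusted p = 1.56e-05). Grid1, a delta-type subunit, rose 2.17-fold (adjusted p = 7.50e-04).

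Of 11 genes of GABA synthesis, transport and chloride balance 2 rose and 3 fell (45.5%, against 19.7% of all genes). The rises were Abat, which breaks GABA down (difference 1.01, adjusted p = 0.0146), and Slc6a11, a GABA transporter of astrocytes (difference 1.12, adjusted p = 0.00750), beside the rise of the whole astrocyte list, whose part in these values was not tested. The falls were small, at -0.40 to -0.65, and none of the 3 remained without P2 array 2 or E18.5 array 1, while the call of Abat was lost without P2 array 2 (adjusted p = 0.0567) or E18.5 array 3 (0.0608). One fall was left without P2 array 3 or E18.5 array 2. The chloride exporter gene Slc12a5 read 10.05, 9.69 and 10.25 at P2, against 9.23, 9.22 and 9.69 at E18.5, and did not pass (adjusted p = 0.139), nor did the importer gene Slc12a2.

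Of 28 presynaptic genes 1 rose and 1 fell, with a median of 0.12, and leaving out 1 array gave 0 to 2 rises and 0 to 1 falls. Of 28 adhesion and organizer genes 4 rose and 1 fell, with 2 rises without P2 array 1, P2 array 2 or E18.5 array 2 and 0 to 2 falls over the arrays left out. Against the 19.7% of all genes that passed, 7.14% of the presynaptic and 17.9% of the adhesion genes did so. Lgi2, a secreted epilepsy-linked protein, read 9.40, 9.28 and 9.38 at P2, against 8.31, 7.70 and 8.27 at E18.5, 2.40-fold higher at P2 without overlap (adjusted p = 0.00692).

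Of 17 Eph receptor and ephrin genes, which guide axons by contact, 1 rose and 2 fell. That was 17.6% of them, against 19.7% of all genes. The rise was lost without P2 array 2, P2 array 3 or E18.5 array 1. Epha3, a receptor that repels growing axons, fell to 9.84, 8.88 and 9.61 at P2, against 11.47, 11.20 and 10.97 at E18.5, 3.41-fold (adjusted p = 7.71e-05). Its mean level was 11.79 at E14.5, 11.21 at E18.5 and 9.44 at P2. Efnb2, a transmembrane ephrin, fell 1.90-fold (adjusted p = 0.00576). Epha5 did not pass by its brightest probe set (difference -0.63, adjusted p = 0.0600), while its other 3 probe sets passed lower, with differences of -0.73 to -1.15.

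Semaphorin signalling genes divided into 6 rises and 4 falls among 29 tested (34.5%, against 19.7% of all genes). There were 0 falls without P2 array 2 and 2 without P2 array 3. Membrane-bound ligands were among those that rose. Sema6a read 8.60, 8.48 and 8.67 at P2, against 7.60, 7.52 and 7.26 at E18.5 (difference 1.12 ± 0.19, SE, adjusted p = 7.65e-04), and Sema5b rose 2.49-fold (adjusted p = 0.00107). A second, dimmer probe set of Sema6a did not follow, with 6.45 ± 0.15 at P2 and 6.49 ± 0.06 at E18.5. Plxnb3, a receptor known from oligodendrocyte lineage cells, rose 2.97-fold (adjusted p = 0.00138). A secreted ligand and a receptor of the class 3 branch were lower. Nrp1, the receptor subunit for class 3 semaphorins, read 10.44, 9.65 and 10.37 at P2, against 11.52, 11.78 and 10.84 at E18.5, 2.34-fold lower at P2 (adjusted p = 0.00957), and Sema3a fell 2.01-fold (adjusted p = 0.0105). Both calls were lost without P2 array 2, with adjusted p of 0.0515 for Nrp1 and 0.0567 for Sema3a. Plxna4, a signalling partner of Nrp1, did not pass by its brighter probe set, with 9.82, 9.77 and 9.84 at P2 and 10.53, 9.92 and 10.60 at E18.5. Its dimmer probe set passed, with 7.34 ± 0.30 at P2 and 8.58 ± 0.28 at E18.5 (difference -1.24, adjusted p over all probe sets = 0.00171).

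Cadherin family genes gave 5 rises and 2 falls among 21 tested (33.3%, against 19.7% of all genes). Pcdh11x, a protocadherin of the X chromosome, rose to 9.81, 9.68 and 9.40 at P2, against 7.59, 8.09 and 7.69 at E18.5, 3.58-fold (adjusted p = 2.88e-05). Pcdh10 rose 2.79-fold (adjusted p = 5.50e-05), with all 6 of its probe sets higher. Cdh7 fell 1.94-fold (adjusted p = 7.56e-05). The rises numbered 2 without E18.5 array 2, and 3 without P2 array 2 or P2 array 3, and 1 fall was left without P2 array 3. Slit, Robo and netrin genes gave 1 rise and 3 falls among 20 tested, and 0 to 2 rises and 1 to 5 falls when 1 array was left out.

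Of 34 migration and cytoskeleton genes 1 rose and 3 fell, with a median of -0.09, and 0 to 2 rose and 1 to 5 fell when 1 array was left out. The share of the list that passed was 11.8%, against 19.7% of all genes. Cdkn1c, a cell cycle inhibitor that also acts in neuronal migration, fell to 9.92, 9.78 and 9.90 at P2, against 11.43, 10.33 and 11.18 at E18.5, 2.16-fold (adjusted p = 0.00299). Among 13 Sox factor genes 2 rose and 1 fell (23.1%, against 19.7% of all genes). There was 1 rise left without P2 array 2, P2 array 3, E18.5 array 1 or E18.5 array 3. Sox11, which maintains the immature neuronal state, fell 1.58-fold (adjusted p = 0.00135). A pair of RNA-binding proteins of early development passed only on probe sets other than the brightest. Igf2bp1 passed lower on 2 of its 4 probe sets, with 5.74 ± 0.22 at P2 and 7.25 ± 0.11 at E18.5 on the clearer one (difference -1.51, adjusted p over all probe sets = 2.00e-05). Igf2bp3 passed lower on 2 of 6, with differences of -0.76 and -0.96. Mycn, a proto-oncogene of progenitors and young neurons, fell 1.84-fold by the brightest of its 3 probe sets (adjusted p = 0.00165).

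The excitatory lineage list had the lowest median of all lists. Of 21 genes tested, 0 rose and 11 fell (52.4%, against 19.7% of all genes), with a median of -0.83. Without E18.5 array 2, 7 fell. Neurog2 and Eomes had the largest falls of all genes. Neurog2, the factor that commits cortical progenitors to a neuronal fate, read 5.97, 6.33 and 5.78 at P2, against 8.82, 9.25 and 8.78 at E18.5. Eomes, the factor of intermediate progenitors, read 6.81, 7.23 and 6.54 at P2, against 9.84, 10.54 and 8.81 at E18.5. Neither gene overlapped between ages, and at P2 Neurog2 was 7.59-fold lower (adjusted p = 1.98e-05) and Eomes 7.31-fold lower (adjusted p = 2.55e-04). Their means over the control ages were 10.52 at E14.5, 8.95 at E18.5 and 6.03 at P2 for Neurog2, and 11.39, 9.73 and 6.86 for Eomes.

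Genes of the next steps of that lineage were lower too. Insm1, a factor of basal progenitors, read 8.17, 8.76 and 8.15 at P2, against 10.10, 10.56 and 9.80 at E18.5 (difference -1.79 ± 0.27, SE, adjusted p = 3.55e-04). Neurod1, a factor of newborn neurons, fell to 8.42, 7.86 and 8.36 at P2, against 10.11, 10.33 and 9.92 at E18.5 (adjusted p = 8.94e-05). Slc17a6, the vesicular glutamate transporter of young excitatory neurons, fell 2.20-fold (adjusted p = 0.00838). Neurod6, a marker of postmitotic excitatory neurons, stayed bright, with 10.12, 10.50 and 11.33 at P2 and 11.86, 11.62 and 11.79 at E18.5. Its call (adjusted p = 0.0490) was lost without any 1 of 5 of the 6 arrays, P2 array 3 being the exception, with adjusted p up to 0.161 (without P2 array 1). Outside the list, Shisa2, an endoplasmic reticulum protein that holds back Wnt and FGF receptors, fell 4.54-fold (adjusted p = 1.56e-05), and the Wnt agonist gene Rspo3 of the list fell 4.08-fold (adjusted p = 7.55e-04). Cell cycle genes gave 0 rises and 1 fall among 30 tested (3.33%, against 19.7% of all genes). Their median was -0.03, with 0 to 2 falls when 1 array was left out.

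Astrocyte genes rose almost throughout, 23 of 27 tested and 0 lower (85.2%, against 19.7% of all genes), with a median of 1.96. The transporters and channels of mature astrocytes were among the largest. Aqp4 read 9.78, 11.11 and 11.02 at P2, against 3.60, 4.17 and 5.91 at E18.5, the largest difference of all 14288 genes at 6.08 ± 0.46 (SE) and again above a dim level. Slc4a4, a bicarbonate cotransporter, read 10.07, 11.22 and 10.92 at P2 and 7.74, 7.59 and 8.34 at E18.5, 7.19-fold higher at P2 (adjusted p = 2.08e-05). Mlc1, a membrane protein of endfeet, rose 11.8-fold (adjusted p = 2.80e-05), and Aldh1l1, a folate enzyme used to mark astrocytes, rose 9.0-fold (adjusted p = 1.80e-05). Slc7a10, an amino acid carrier of mature astrocytes, rose 5.58-fold (adjusted p = 2.85e-06). Glul, glutamine synthetase, was already bright and rose 2.01-fold, with 12.01, 12.27 and 12.08 at P2 and 10.95, 11.19 and 11.19 at E18.5 (adjusted p = 4.76e-05). No P2 array overlapped an E18.5 array in any of these genes. S100b did not pass by its brighter probe set (difference 0.28) but did by the other, with 6.45 ± 0.60 at P2 and 4.87 ± 0.17 at E18.5 (adjusted p over all probe sets = 0.00158).

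Oligodendrocyte precursor genes rose in 15 of 17 cases (88.2%, against 19.7% of all genes), with 0 lower and a median of 1.18. Gpr17, a receptor of committed precursors, read 10.87, 10.51 and 10.03 at P2, against 7.04, 7.76 and 7.75 at E18.5, 7.75-fold higher at P2 (adjusted p = 2.24e-06). Nkx2-2, a factor of the onset of differentiation, read 7.57, 8.37 and 7.45 at P2, against 4.93, 5.51 and 5.69 at E18.5, 5.35-fold higher (adjusted p = 5.14e-05). Pdgfra, the growth factor receptor that marks precursors, rose 2.94-fold (adjusted p = 0.00142), and its mean over the control ages was 6.94 at E14.5, 10.88 at E18.5 and 12.43 at P2. The factors Olig1 (difference 0.99) and Olig2 (difference 1.01) passed by a narrow margin. Without E18.5 array 1, which read lowest in both, the adjusted p was 0.120 for Olig1 and 0.170 for Olig2. Neither passed without P2 array 2 (0.0797 for Olig1 and 0.114 for Olig2) or without P2 array 3 (0.0501 for Olig1 and 0.0891 for Olig2).

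Of 14 genes of maturing oligodendrocytes and myelin 7 rose and 0 fell, with 3 left without P2 array 2 and 4 without P2 array 1, E18.5 array 1 or E18.5 array 2. Ugt8a, the enzyme of myelin galactolipids, read 9.32, 9.38 and 8.43 at P2, against 6.77, 7.29 and 6.78 at E18.5, 4.28-fold higher at P2 (adjusted p = 7.55e-05). Cnp, a phosphodiesterase of the myelin sheath, rose 3.74-fold (adjusted p = 0.00106). Mbp, myelin basic protein, depended on the probe set. Its brightest probe set, which stood for the gene in the tests, read 8.70 ± 0.14 at P2 and 8.74 ± 0.06 at E18.5. Of the 7 probe sets that passed the filter, 4 rose, with differences of 3.38 to 5.04. The clearest of them read 10.17 ± 1.42 at P2 and 5.13 ± 0.50 at E18.5 (adjusted p over all probe sets = 3.27e-05). The Mbp gene also holds the Golli transcripts, which neurons make and which share part of its exons, and the files do not say which transcript each probe set reads. Itpr2, an inositol trisphosphate receptor, showed the same split, with 6.93 ± 0.11 at P2 and 6.94 ± 0.14 at E18.5 on its chosen probe set and 8.33 ± 0.46 at P2 and 5.50 ± 0.45 at E18.5 on another. Qk, an RNA-binding protein of glia, did not differ beyond its spread on its 2 brightest probe sets, while the other 5 rose by 1.17 to 1.83.

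**Figure D4:**
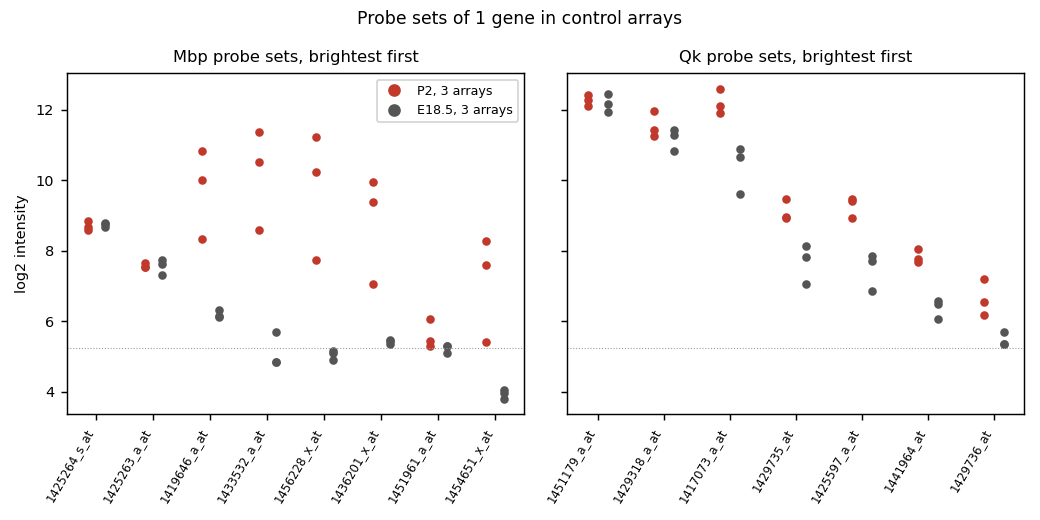
Log2 intensity (y axis) of each probe set of Mbp (left) and Qk (right) on the 3 P2 arrays (red, left of each pair) and the 3 E18.5 arrays (grey), in order of the mean over all arrays of the series. The probe set that stood for the gene is the first of each panel and overlaps between ages (8.70 at P2 and 8.74 at E18.5 for Mbp), while 4 further Mbp probe sets rose by 3.38 to 5.04.

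Such splits were found across the genome. Of genes whose brightest probe set did not pass, 856 had another probe set that did, 56 of them in one of the lists. Among genes that passed, 727 had a second probe set that passed, and 10 had one that passed in the opposite direction. Counted by any of their probe sets, 3569 genes passed.

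Radial glia and progenitor genes rose in 11 of 22 cases with 0 lower, and in 5 to 6 without P2 array 2, P2 array 3 or E18.5 array 1. Fabp7, a lipid-binding protein of radial glia, was close to the top of the array range at both ages, with 13.84, 13.92 and 13.99 at P2 and 12.25, 13.01 and 13.33 at E18.5 (difference 1.05, adjusted p = 0.00883). Tnc, a matrix glycoprotein of germinal zones, rose 3.88-fold (adjusted p = 0.00268). Nes, another member of the list, did not pass (difference 0.60, adjusted p = 0.147). Hes5, which had the largest difference of the list, was also counted in the list of Notch pathway genes.

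Of 19 Notch pathway genes tested, 8 rose and 3 fell (57.9%, against 19.7% of all genes). The rises numbered 4 without E18.5 array 1 and 5 without P2 array 3, and the falls 1 without E18.5 array 2. The receptor gene Notch3 read 9.0, 9.67 and 9.66 at P2, against 6.53, 6.75 and 7.58 at E18.5, 5.62-fold higher at P2 (adjusted p = 3.30e-04). The target gene Hes5 rose to 10.57, 11.05 and 11.35 at P2, against 7.65, 9.44 and 9.03 at E18.5, 4.87-fold (adjusted p = 0.00453). Nrarp, a target that feeds back on the pathway, rose 3.25-fold (adjusted p = 0.00126), and Hey2 passed above a dim E18.5 level, with 5.51, 7.16 and 6.22 at P2 and 4.59, 4.49 and 4.64 at E18.5 (adjusted p = 0.00202). Hes6, which opposes Hes proteins and promotes neurogenesis, was 1.54-fold lower at P2 (adjusted p = 0.00404). None of these 5 genes overlapped between ages. Lfng, a sugar transferase acting on Notch, passed narrowly (difference 0.92, adjusted p = 0.0476) and did not pass without P2 array 2 (0.137), P2 array 3 (0.141), E18.5 array 1 (0.204) or E18.5 array 2 (0.0593).

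The promoters of the rising Notch genes were searched for GTGGGAA, the core bound by the pathway's DNA-binding factor, on both strands of the 300 bases held for each gene. It was in 3 of the 6 that had a promoter in the RefSeq table, against 6.39% of 27025 promoters. The 3 are shown with the element in capitals, Hes5 (GRCm38.p6, chr4:154960673-154960972, plus strand) with matches at bases -226 to -220 and -83 to -77, Hey2 (chr10:30842734-30843033, minus strand) at -207 to -201 and -4 to 3, and Lfng (chr5:140607091-140607390, plus strand) at -109 to -103. A match of letters is a description and not a binding site.
Hes5: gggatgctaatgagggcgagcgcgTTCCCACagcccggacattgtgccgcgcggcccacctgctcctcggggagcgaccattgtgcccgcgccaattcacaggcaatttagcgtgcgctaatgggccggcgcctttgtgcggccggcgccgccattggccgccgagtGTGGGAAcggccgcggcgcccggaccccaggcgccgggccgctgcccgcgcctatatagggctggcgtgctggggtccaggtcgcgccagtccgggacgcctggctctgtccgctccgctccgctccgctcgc
Hey2: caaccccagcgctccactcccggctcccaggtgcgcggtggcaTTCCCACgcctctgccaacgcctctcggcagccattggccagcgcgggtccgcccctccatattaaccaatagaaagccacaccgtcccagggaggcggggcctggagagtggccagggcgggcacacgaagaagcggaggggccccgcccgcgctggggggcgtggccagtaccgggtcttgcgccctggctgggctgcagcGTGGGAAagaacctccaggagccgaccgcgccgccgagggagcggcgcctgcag
Lfng: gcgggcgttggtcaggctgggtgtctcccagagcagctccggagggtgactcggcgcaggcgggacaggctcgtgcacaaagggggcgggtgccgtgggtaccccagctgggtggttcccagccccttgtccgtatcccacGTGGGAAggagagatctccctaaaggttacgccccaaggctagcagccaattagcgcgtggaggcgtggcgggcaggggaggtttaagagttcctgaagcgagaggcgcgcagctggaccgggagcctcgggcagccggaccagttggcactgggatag

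Matrix genes of the brain rose in 12 of 21 cases (57.1%, against 19.7% of all genes) with 0 lower and a median of 0.79. Bcan, a proteoglycan of perineuronal and glial matrix, read 12.14, 12.54 and 12.60 at P2, against 9.15, 10.32 and 10.80 at E18.5, 5.05-fold higher at P2 (adjusted p = 0.00311). Has2, a hyaluronan synthase, rose 2.59-fold (adjusted p = 3.94e-04), and the protease inhibitor gene Timp4 rose 12.8-fold (adjusted p = 4.92e-06). Ncan, a proteoglycan of neurons and glia, was bright at both ages and rose 1.67-fold (adjusted p = 0.00147).

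Lipid carriers and fuel-use genes rose beside the glial lists, and the part of those cells in the rises was not tested. Of 16 lipid transport genes 10 rose and 0 fell (62.5%, against 19.7% of all genes), with a median of 0.88. Apoe read 12.17, 12.44 and 11.90 at P2, against 7.89, 7.78 and 7.87 at E18.5, 20-fold higher at P2 (adjusted p = 1.95e-05). Abca1, a lipid exporter that loads such particles, rose 2.61-fold (adjusted p = 6.21e-05) and the lipoprotein gene Clu 3.84-fold (adjusted p = 7.71e-05). Of 16 genes of ketone, fatty acid and monocarboxylate use 8 rose and 0 fell, and 5 rose with a minimum of 1.5-fold or in a fit of only the 6 control arrays. Pdk4, a kinase that turns off pyruvate oxidation, read 7.33, 7.97 and 7.39 at P2, against 4.04, 4.33 and 4.24 at E18.5 (difference 3.36 ± 0.23, SE, adjusted p = 6.81e-07, above a dim E18.5 level). Cpt1a, which carries fatty acids into mitochondria, rose 3.97-fold (adjusted p = 5.28e-05), and Acadl, an acyl-CoA dehydrogenase, rose 3.78-fold (adjusted p = 8.94e-05). Ppargc1a, a coactivator of mitochondrial genes, rose 3.56-fold (adjusted p = 6.03e-04). In the respiratory chain 1 of 33 oxidative phosphorylation genes rose and 0 fell (3.03%). The rises numbered 0 to 4 when 1 array was left out, and of 24 cytosolic ribosomal protein genes 0 passed.

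Thyroid hormone genes showed 4 rises and 0 falls among 12 tested (33.3%, against 19.7% of all genes). There were 2 rises without P2 array 2, P2 array 3 or E18.5 array 2. Dio2, the enzyme that activates the hormone, read 9.83, 10.74 and 10.33 at P2, against 6.33, 7.66 and 7.78 at E18.5, 8.24-fold higher at P2 (adjusted p = 1.56e-05). Slco1c1, a carrier of the hormone found in astrocytes and endothelium, rose 5.83-fold (adjusted p = 5.31e-05). Of 13 genes of DNA methylation 2 rose (15.4%, against 19.7% of all genes), among them the methyltransferase gene Dnmt3a, 1.63-fold (adjusted p = 0.0102).

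Immediate early genes rose in 8 of 31 cases and fell in 1, with 5 rises without P2 array 2, 4 without E18.5 array 2, and 0 to 3 falls when 1 array was left out. Zfp36, which destabilizes messenger RNA, read 10.37, 10.40 and 10.04 at P2, against 7.57, 7.39 and 7.96 at E18.5, 6.19-fold higher at P2 (adjusted p = 1.74e-05). Ccn1, a secreted matrix protein, rose 4.89-fold (adjusted p = 3.21e-04), and Ier3 rose 4.06-fold (adjusted p = 0.00301). Atf3, a stress factor, read 9.84 ± 1.17 at P2 and 7.07 ± 0.68 at E18.5 without overlap (adjusted p = 0.00460), with its P2 arrays in the same order as the microglia list, whose part in the value was not tested. Fos (difference 0.27, adjusted p = 0.35) and Fosb (difference -0.73, adjusted p = 0.191) did not pass. The call of Egr1 (difference 0.54, adjusted p = 0.0455) was lost under 9 of 19 alternatives. The fall was that of Nr4a3 (difference -1.03, adjusted p over all probe sets = 0.0168). The Zfp36 promoter (RefSeq, GRCm38.p6, chr7:28379179-28379478, minus strand) is shown because it alone, of 7 rising genes of the list with a promoter in the table, holds a CArG box, the serum response element core, at bases -58 to -49 in capitals. Such a box was in 1.57% of 27025 promoters searched on both strands.
Zfp36: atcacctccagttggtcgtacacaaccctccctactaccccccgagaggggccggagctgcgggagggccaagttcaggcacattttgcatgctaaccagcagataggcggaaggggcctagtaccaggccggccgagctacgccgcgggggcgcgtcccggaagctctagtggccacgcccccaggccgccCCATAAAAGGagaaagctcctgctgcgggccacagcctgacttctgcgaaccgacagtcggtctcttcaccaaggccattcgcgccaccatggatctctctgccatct

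Heat shock genes were uneven between the P2 arrays. Hspa1a read 11.51, 10.37 and 7.50 at P2, against 6.90, 6.29 and 7.69 at E18.5, so that P2 array 3 lay within the E18.5 range. It passed (adjusted p = 0.0138), but not without P2 array 1 (0.0565), P2 array 2 (0.0575) or E18.5 array 2 (0.0598), nor in a fit of only the 6 control arrays (0.0902). Mt1, a metal-binding stress protein of astrocytes, was higher on every P2 array, with 9.64, 10.54 and 9.87 at P2 and 7.66, 7.81 and 8.60 at E18.5 (difference 1.99, adjusted p = 0.00432). Of the 18 genes of heat shock and glucocorticoid response 7 rose and 2 fell, and 4 rose without P2 array 2 or E18.5 array 2. One fall was left without P2 array 2, P2 array 3, E18.5 array 1 or E18.5 array 2.

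Microglia and border macrophage genes had a median of 1.72, but only 6 of 22 passed (27.3%, against 19.7% of all genes), all higher. Csf1r, their growth factor receptor, read 12.86, 11.12 and 9.69 at P2, against 10.26, 8.02 and 8.43 at E18.5, so the ages overlapped and it did not pass. Of the 6, the macrophage gene Mrc1 read 9.99, 8.72 and 7.35 at P2 and 6.69, 5.55 and 6.01 at E18.5 (difference 2.60 ± 0.59, SE, adjusted p = 0.00640), and the chemokine gene Pf4 read 9.50, 9.14 and 7.64 at P2 and 6.88, 6.91 and 7.08 at E18.5 (adjusted p = 0.00759). P2 array 1 was the highest for Csf1r, Mrc1 and Pf4. Without P2 array 3, the lowest of that age, 17 of the 22 passed, and in a fit of only the 6 control arrays 2 did. B2m, the light chain of MHC class I, followed the same order, with 10.56, 10.19 and 9.72 at P2 and 8.66, 8.15 and 8.79 at E18.5 (adjusted p = 0.00800), and the part of microglia in that value was not tested.

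Vessel and meningeal genes rose in part. Of 21 endothelial and mural genes 6 rose and 0 fell (28.6%, against 19.7% of all genes). Among them was Tagln, an actin-binding protein of smooth muscle. It read 7.27, 7.55 and 7.43 at P2, against 6.11, 6.11 and 6.43 at E18.5 (adjusted p = 1.15e-04). Of the other rises, Slco1c1 was also counted in the astrocyte list and Cspg4 in the oligodendrocyte precursor list. The endothelial genes Cldn5 (difference 1.36, adjusted p = 0.141) and Cdh5 (0.50, 0.261) did not pass. Islr, a secreted protein of fibroblasts, averaged 7.70 ± 0.67 at P2 and 5.48 ± 0.24 at E18.5, 4.66-fold higher at P2 (adjusted p = 2.78e-04). It was 1 of 3 rises among 11 meningeal genes (27.3%). Erythroid genes (5 tested) and ependymal genes (8 tested) gave 0 calls. Among the latter Ttr, the choroid plexus carrier protein, read 11.04, 8.04 and 5.80 at P2, against 4.49, 6.0 and 5.92 at E18.5, and the ages overlapped.

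The share that passed varied among the other lists, against 19.7% of all genes. Of 15 genes of serotonin, acetylcholine and monoamine signalling 3 rose and 2 fell (33.3%), Htr3a being 1 of the falls. Maob, an oxidase that breaks down amines in astrocytes, rose 2.31-fold (adjusted p = 9.15e-04), and Chrna4, a nicotinic receptor subunit, rose 1.67-fold (adjusted p = 0.00795). Of 16 glycolysis genes 3 rose and 0 fell (18.8%), led by Aldoc, the aldolase of astrocytes and also a member of the astrocyte list, 7.14-fold (adjusted p = 0.00112). Cholesterol synthesis enzymes gave 4 rises and 0 falls among 19 (21.1%), and 1 rise without P2 array 2, E18.5 array 1 or E18.5 array 2. Of these Tm7sf2, a sterol reductase, rose 2.10-fold (adjusted p = 7.51e-04).

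Of 17 genes of interferon response and MHC 5 rose and 0 fell (29.4%), among them Ifitm3, a membrane protein that blocks virus entry, 3.39-fold (adjusted p = 0.00495). Apoptosis regulators gave 1 rise and 3 falls among 21 (19%), and 1 to 5 falls when 1 array was left out. The rise was lost without P2 array 2, E18.5 array 1 or E18.5 array 2. Casp2, an initiator caspase, fell 1.65-fold (adjusted p = 1.76e-04). Among 25 neuronal splicing and RNA-binding genes 3 rose and 2 fell (20%). The rises numbered 0 without P2 array 2 and 1 without E18.5 array 1 or E18.5 array 2, and the falls 4 without P2 array 1 and 1 without P2 array 3. Khdrbs2, which directs neurexin splicing, fell 2.15-fold (adjusted p = 0.00648). Imprinted growth genes fell in 2 of 14 cases (14.3%), Cdkn1c and Zdbf2, and developmental timing genes in 2 of 12 (16.7%), Mycn and Arid3b. The call of Arid3b was lost without any 1 of 5 of the 6 arrays, P2 array 1 being the exception. Markers of striatal projection neurons gave 0 calls among 12 and those of Cajal-Retzius and subplate cells 2 rises among 13 (15.4%), 1 without P2 array 2. Those of olfactory bulb interneurons gave 1 rise among 11 (9.09%), and 3 without P2 array 1 and 2 without E18.5 array 2. The rise was that of the epidermal growth factor receptor gene Egfr, 2.19-fold (adjusted p = 0.00753).

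The differences of the same age step in Htr3a-KO mice came from 6 arrays that the control differences did not use. The calls of both steps took their spread from the same model of all arrays of the series. Calls shared by both steps are therefore not an independent repeat. In the Htr3a-KO step 4071 genes (28.5%) passed, 1929 (13.5%) higher and 2142 (15%) lower. Of the 1424 genes that rose in controls, 1405 (98.7%) had a positive difference in Htr3a-KO and 1038 passed higher, which is 72.9% of the control rises and 53.8% of the Htr3a-KO rises. Of the 1394 control falls, 1368 (98.1%) had a negative difference and 971 passed lower, 69.7% of the control falls and 45.3% of the Htr3a-KO falls. In either direction 0 genes passed the opposite way. The median of the control rises was 0.78 in Htr3a-KO and 0.89 in controls, and that of the control falls was -0.49 in Htr3a-KO and -0.55 in controls. Across all 14288 genes, which are not independent replicates, the correlation of the 2 steps was 0.834.

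A direct test of the difference between the Htr3a-KO step and the control step called 0 genes in limma, with 1033 at an unadjusted p under 0.05, and 0 under every alternative run. On simulated data with 200 of 14288 genes changed, this test recovered 48% of 2-fold and 8% of 1.5-fold differences between the steps. Astrocyte genes gave 23 rises in each genotype. Aqp4 differed by 5.0 in Htr3a-KO and by 6.08 in controls, and Neurog2 by -3.69 in Htr3a-KO and by -2.92 in controls. Vip rose by 2.52 in Htr3a-KO and by 1.79 in controls. Htr3a, the disrupted gene, read 6.71 to 7.01 at P2 and 6.61 to 7.09 at E18.5 in Htr3a-KO, below every control array of either age. It differed by 0.01 in Htr3a-KO and by -1.55 in controls, a difference of 1.56 between steps that did not pass (adjusted p = 0.643). Microglia genes gave 0 rises in Htr3a-KO with a median of 0.26, against 6 rises in controls with a median of 1.72. For Mrc1 the step was -0.05 in Htr3a-KO and 2.60 in controls, and for Pf4 it was -0.37 in Htr3a-KO and 1.80 in controls. These too did not pass in the test of the difference.

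**Figure D5:**
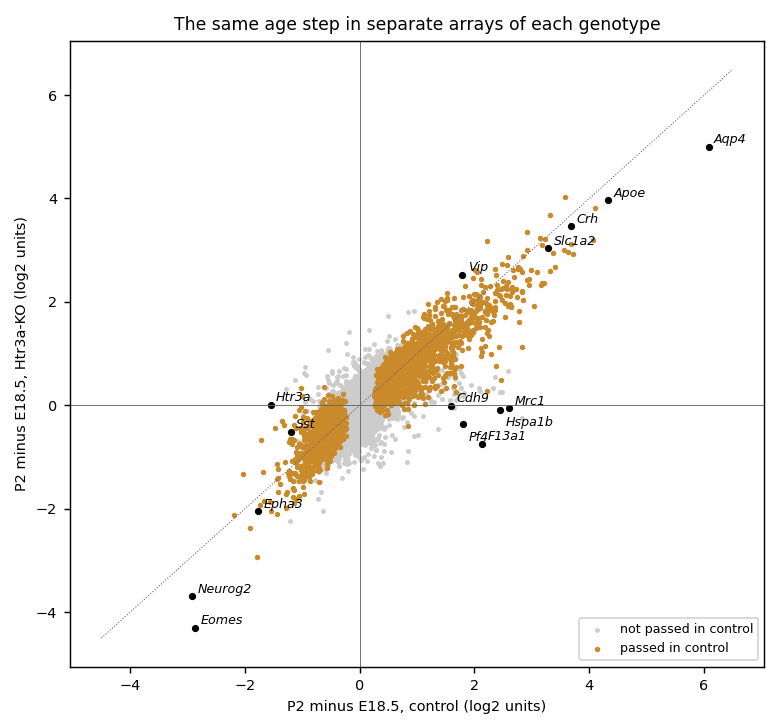
Difference between P2 and E18.5 of each of the 14288 genes in Htr3a-KO (y axis) against that in controls (x axis), both in log2 units, with orange points for genes that passed in controls and a dotted line of equality. Black points mark named genes. Apoe and Crh lie near the line, while Htr3a (0.01), Mrc1 (-0.05) and Pf4 (-0.37) lie near or below 0 in Htr3a-KO.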

How the data were processed

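The authors deposited a matrix of RMA-normalized log2 intensities from Affymetrix Mouse Genome 430 2.0 arrays, made with Partek Genomic Suite 6.6 beta per the labels of the series. RMA is a background-corrected, quantile-normalized summary of each probe set. It was used as given. Genes were named by GEO's platform annotation: 34945 probe sets had 1 gene, 932 several (not used) and 9160 none. Each gene was represented by its brightest probe set. Probe sets with a mean under 5.255, the lowest 30% of all probe sets other than controls, with or without a gene, were left out. One limma 3.58.1 model (R 4.3.3) with 6 group means over all 18 arrays and 12 residual degrees of freedom gave each contrast, with Benjamini-Hochberg adjustment over 14288 genes. On simulated data with known changes, 82% of 2-fold and 50% of 1.5-fold changes were recovered for the control step, with 4 false calls, and 48% and 8% for the genotype difference. The number of arrays limits the precision. The rule named the 15 largest rises and falls without overlap of arrays, and from each of 50 gene lists the first 3 members and up to 4 that passed with the smallest p. Gad1, Gad2 and Htr3a were always named. Other list members were named after their values were seen. The members and lists were chosen with earlier results of these data known. Promoters came from RefSeq (GRCm38.p6). Alternatives changed the filter, probe set choice, normalization, fit, threshold and arrays used.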

Additional observations from a re-analysis of the deposited data

How the results depend on the processing

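The 2818 calls of the control step became 1694 with a minimum of 1.5-fold and 1665 when only the 6 control arrays were fitted, where fewer arrays set the spread. Leaving out 1 array gave 1823 to 2901 calls in the control step and 2518 to 3718 in the Htr3a-KO step, which gave 2137 with a minimum of 1.5-fold, against 4071. The split of higher and lower calls in controls, 1424 and 1394, became 1359 and 1750 after quantile normalization and 1320 and 1927 after median centring, and the cause was not tested. Replicate numbers were not used to pair the samples. Deviations of same-numbered control arrays correlated at 0.219, 0.0828 and 0.262 and those of Htr3a-KO arrays at -0.427, 0.301 and -0.196. With 3 arrays a group these values cannot decide whether the numbers pair the samples. With the replicate number as a block, 2584 genes passed in controls, 3784 in Htr3a-KO and 0 in the difference between them. Of 200 named genes that passed, 110 passed under all 19 alternatives, 13 were absent only under the stricter filter and 77 were lost in at least 1. When the probe sets of each gene were averaged, Mbp (2.43, adjusted p = 1.52e-04) and Itpr2 (1.16, adjusted p = 1.84e-05) turned from about 0 to higher at P2. Counting any probe set, chosen after seeing the data, gave 3569. In a fit of only the 6 control arrays, rises numbered 3 of cadherins (against 5), 4 of myelin genes (against 7) and 3 of interferon and MHC genes (against 5), and myelin rises numbered 3 with a minimum of 1.5-fold.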
